A study of Saccharomyces cerevisiae with 25 samples.

Results

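The 8 genes described here encode the mating equipment of a MATa yeast cell: the pheromone precursors MFA1 and MFA2, the exporter STE6, the receptor STE2, the protease BAR1, the agglutinin subunits AGA1 and AGA2, and the regulator ASG7. They were taken by name, and all 8 were found among the 6648 gene names of the expression table. Budding yeast (Saccharomyces cerevisiae) of the MATa mating type secrete a-factor, a short farnesylated peptide, and sense the alpha-factor of MAT alpha cells. All but AGA1 are a-specific, meaning that they are active in MATa cells and repressed in MAT alpha cells by the alpha2 protein together with Mcm1, whereas AGA1 is used by cells of both mating types. Pheromone sensing runs from the receptor through a G protein and a MAP kinase cascade to the transcription factor Ste12, which raises many mating genes further.

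All 25 libraries came from 1 strain of the BY4741 background carrying pho84pr-YFP, a fluorescent reporter named after the phosphate transporter gene PHO84, and labelled delta-phm3. VTC4, also called PHM3, is a subunit of the polyphosphate-making complex of the vacuole. The cells were grown in high-phosphate medium, washed and moved to medium without phosphate, and total RNA was taken as cDNA to Illumina sequencing. There was 1 high-phosphate library (0 min) and 1 library every 15 min from 15 to 360 min after the move, so no time point was replicated. For testing, the 24 no-phosphate libraries were placed in 3 windows of 8 libraries, 15 to 120, 135 to 240 and 255 to 360 min. Neighbouring libraries are points of one time course, and a p-value here reflects no more than the scatter among them, part of which may be technical. The wild-type strain was not analysed here, so nothing below separates the deletion from the loss of phosphate.

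Each value is the log2 of reads per 1000000 listed reads of a library (log2 RPM), and genes below 10 reads were not listed. The depth implied by the smallest listed value ran from 106672 to 1911747 reads with a median of 746734. The 195 min library (106672 reads, 2360 listed genes) and the 345 min library (188278 reads, 3595 listed genes) were the shallowest by far, since the next was at 501479 reads. In ribosomal protein genes, the libraries at 75 to 105 min stood nearer to 0 min than the late ones did. The summed level of 132 such genes was 324177 RPM at 0 min and 171421 to 319451 RPM at 75 to 105 min. It was 41311 to 55935 RPM at 255 to 360 min. The PHO regulon, which cells raise when phosphate is short, stayed above 0 min. Its 17 listed genes summed to 2450 RPM at 0 min and to 9645 to 16854 RPM at 75 to 105 min. VTC4 was listed in all 25 libraries labelled delta-phm3, at 7.66 to 8.87 log2 RPM, with 7.92 at 0 min. The level of the gene therefore does not bear out the label, and the extent of the deletion is not stated in the sources used here.

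The mating type was checked by its own markers. HMRA1, the silent copy of the a1 gene whose sequence is shared with the MATa locus, was listed in 25 of 25 libraries at 6.26 to 8.40 log2 RPM. The alpha genes MATALPHA1, MATALPHA2, HMLALPHA1 and HMLALPHA2 were listed in 0 libraries, and so was HMRA2. How reads that match several places were counted is not given, so the absence of these genes alone does not settle the mating type. Of the 4 markers of MAT alpha cells, the alpha-factor genes MF(ALPHA)2 and MF(ALPHA)1 were listed in 0 and 1 libraries, while the a-factor receptor gene STE3 was listed in 22 (mean 4.85 log2 RPM) and the agglutinin gene SAG1 in 19 (mean 4.34). The summed level of these 4 was 30.8 RPM at 0 min, 21.9 to 66.5 RPM at 15 to 120 min, 0 to 76.9 RPM at 135 to 240 min and 0 to 63.8 RPM at 255 to 360 min. The sums of 0 came from the shallow 195 and 345 min libraries, with listing limits of 6.55 and 5.73 log2 RPM. The highest listed values of these markers in the 2 windows were 5.90 (STE3) and 5.41 (SAG1). A sum of 0 there thus does not show absence. Of 6 markers of sporulating diploid cells, the master regulators IME1 and IME2 were listed in 0 libraries. NDT80 was listed in 25, SPS1 in 11, SPS4 in 9 and SPO11 in 3. The summed level of these 6 was 32.1 RPM at 0 min and 50.8 to 122.1 RPM at 15 to 120 min. It was 59.3 to 140.6 RPM at 135 to 240 min and 55.2 to 185.9 RPM at 255 to 360 min. The upper ends, 140.6 and 185.9 RPM, were NDT80 alone in the shallow 195 and 345 min libraries, at 7.14 and 7.54 log2 RPM. In RNA from a whole culture, a lower share of cells using a gene and less RNA per cell cannot be told apart.

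The operator through which alpha2 and Mcm1 act on a-specific genes is shown first, because it is what 7 of the 8 genes share in sequence. The pattern TTACC, any 6 bases, GG, any base and AA was searched on both strands of the 400 bases before each start codon of the R64 genome. It was present in 7 of the 8 genes, all but AGA1, and in 42 of 6001 promoters in all (0.7%). The pattern was written from what is known of these operators, so its presence is a description and not a finding. In the matches below, capitals mark the fixed letters of the pattern, and 7 bases before and 9 bases after the match are included.
MFA1, chrIV:1384942-1384973, plus strand, 211 bases before the start codon: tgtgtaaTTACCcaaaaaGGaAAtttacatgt
MFA2, chrXIV:352163-352194, plus strand, 228 bases before: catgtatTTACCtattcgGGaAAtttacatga
STE6, chrXI:46476-46507, minus strand, 189 bases before: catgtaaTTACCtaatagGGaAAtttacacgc
STE2, chrVI:82350-82381, minus strand, 205 bases before: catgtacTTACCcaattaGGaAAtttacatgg
BAR1, chrIX:322078-322109, plus strand, 241 bases before: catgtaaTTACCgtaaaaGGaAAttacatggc
AGA2, chrVII:437102-437133, plus strand, 275 bases before: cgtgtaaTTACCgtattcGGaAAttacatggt
ASG7, chrX:101904-101935, minus strand, 133 bases before: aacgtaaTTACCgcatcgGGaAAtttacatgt
STE6 held another match at chrXI:46537-46568 on the plus strand, 248 bases before its start codon. The matches lay 133 to 275 bases before the start codon, and 3 of the 8 ran opposite to their gene. The pheromone response element TGAAACA, the sequence that Ste12 binds, was found on either strand of the same windows in 7 of the 8 genes, all but ASG7, and in 592 of 6001 promoters (9.87%). ASG7 and AGA1 thus each held 1 of these patterns and the other 6 genes held both.

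The genes were read at very different levels. Per kilobase of coding sequence, the mean over libraries was 13.92 (log2 RPM per kilobase) for MFA1, 13.88 for MFA2, 9.25 for AGA2, 8.57 for STE2, 5.83 for BAR1, 5.09 for ASG7, 4.78 for AGA1 and 4.03 for STE6. The order of neighbours was firm at MFA2 over AGA2 and at STE2 over BAR1, which held in 25 of 25 libraries, and nearly so at AGA2 over STE2 (24 of 25), BAR1 over ASG7 (16 of the 17 that listed both) and AGA1 over STE6 (22 of 23). MFA1 was above MFA2 in 14 of 25 libraries, with a mean difference of 0.04 ± 0.47 (SD). This spread includes a change of their ratio with time, described below, so the mean over all libraries sets no order between these 2 genes. ASG7 was above AGA1 in 12 of the 17 libraries that listed both, with a difference of 0.31 ± 0.56. The division by length assumes reads spread along the gene, and the sources used here do not say how the cDNA was made into libraries. Counts per library set the precision: the median was 1428 reads for MFA1, 1402 for MFA2, 373 for STE2, 125 for AGA2, 71 for BAR1, 51 for AGA1, 43 for STE6 and 19 for ASG7.

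**Figure D1:**
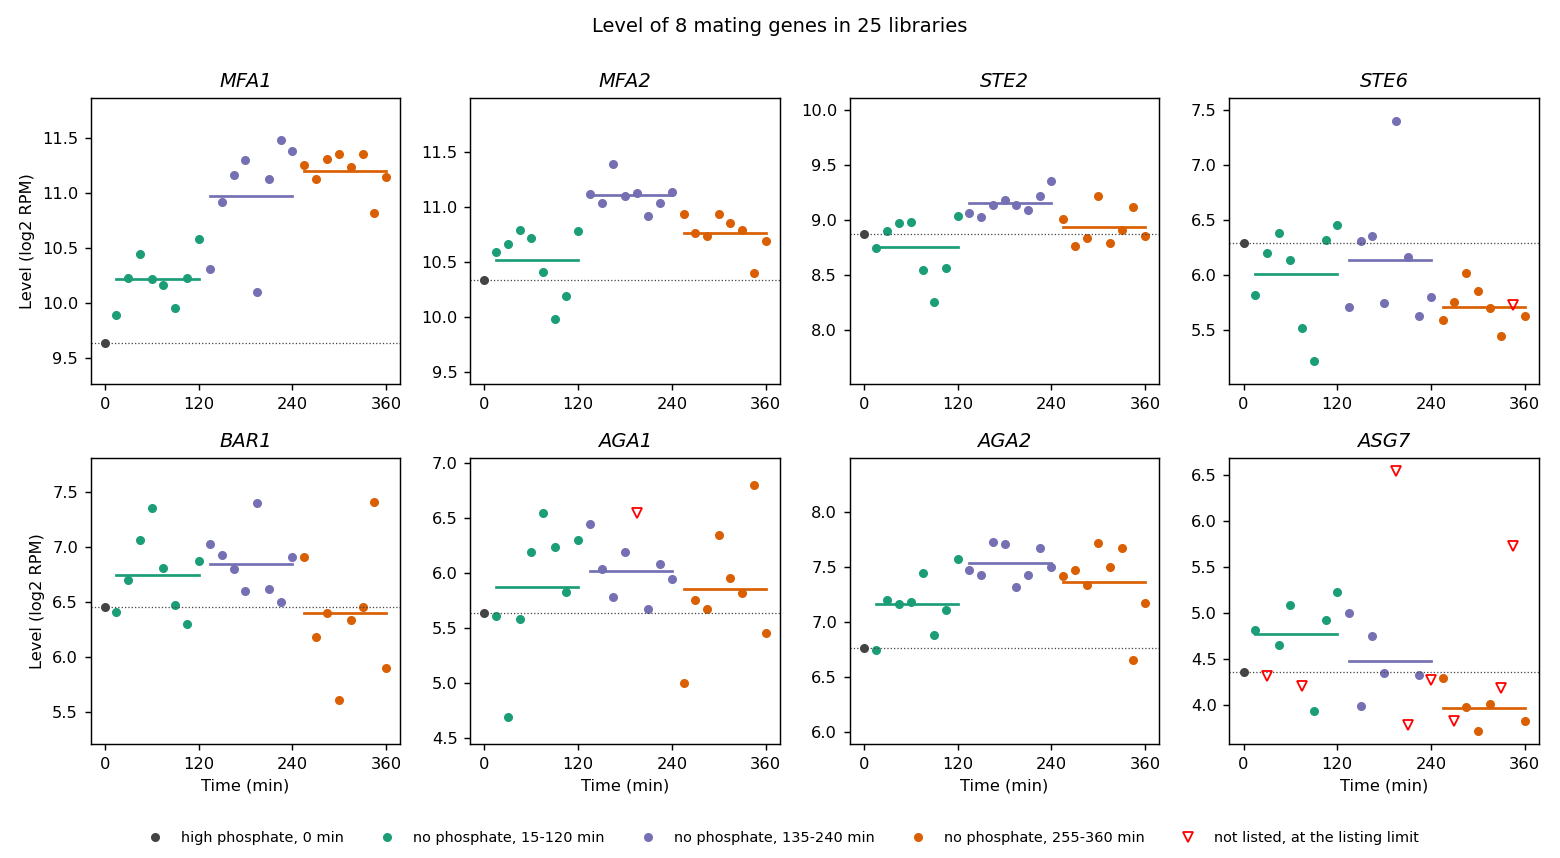
Level of each of the 8 genes (log2 RPM, vertical axes with different ranges) in every library against time after the move to medium without phosphate (min). Points are single libraries, horizontal lines are window means, the dotted line is the 0 min value, and red triangles stand at the listing limit of libraries in which the gene was not listed. MFA1 is the gene whose 24 no-phosphate libraries all lie above its 0 min value.

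MFA1 and MFA2 both encode precursors of a-factor. Their short coding sequences are shown aligned in letters, with capitals for bases that are identical in the alignment and small letters for mismatches and for bases set against a gap.
MFA1, YDR461W, chrIV:1385176-1385286, plus strand, 1 coding exon: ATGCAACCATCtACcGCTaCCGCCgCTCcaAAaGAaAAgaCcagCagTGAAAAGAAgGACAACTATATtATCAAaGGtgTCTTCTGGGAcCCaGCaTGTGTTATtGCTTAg
MFA2, YNL145W, chrXIV:352414-352530, plus strand, 1 coding exon: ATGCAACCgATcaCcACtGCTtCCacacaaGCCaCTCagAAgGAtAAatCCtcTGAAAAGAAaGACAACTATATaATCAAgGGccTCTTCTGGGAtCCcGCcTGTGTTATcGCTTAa
The alignment held 86 identical bases (71.7%), 22 mismatches and 12 gaps, and its longest identical run was 11 bases. The implied read number was whole in 25 of 25 libraries for MFA2 and in 24 of 25 for MFA1, the 135 min library being the exception.

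MFA1 rose from the early to the later windows, and between the middle and late windows its difference was not called (0.22, limma adjusted p = 0.494). MFA1 stood at 9.63 log2 RPM at 0 min. The lowest, median and highest of its 8 libraries were 9.89, 10.22 and 10.58 at 15 to 120 min, 10.10, 11.14 and 11.48 at 135 to 240 min, and 10.81, 11.24 and 11.35 at 255 to 360 min. All 24 no-phosphate libraries were above 0 min, and all 8 late libraries were above all 8 early ones. The lowest library of the middle window was the shallow one at 195 min, and the lowest of the late window was the shallow one at 345 min. Against 0 min, MFA1 was higher by 1.56 on the log2 scale at 255 to 360 min (SE 0.36, 95% interval 0.83 to 2.30, limma adjusted p = 0.00157), a 2.95-fold difference that rests on 1 high-phosphate library. It was the 1 member of 7 tested that passed, where 30.5% of all 4613 tested genes passed, 25% as higher and 5.46% as lower. Against 15 to 120 min, MFA1 was higher by 0.98 (SE 0.17, interval 0.64 to 1.33, limma adjusted p = 3.46e-05), a 1.98-fold difference. Again it was the 1 member of 7 that passed, beside 40.4% of 4634 tested genes, 31.5% passing as higher and 8.85% as lower.

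The size of this rise depends on how libraries are scaled. The median difference of the tested genes was itself 0.42 against 0 min and 0.23 against 15 to 120 min. With each library centred on the median of the tested genes listed in it, MFA1 was higher by 0.99 against 0 min (limma adjusted p = 0.214). Against 15 to 120 min it was then higher by 0.67 (limma adjusted p = 0.0514). That median rests on fewer genes in the shallow libraries, with 2360 listed at 195 min and 3595 at 345 min. The part of depth in the shifts was not tested, here or wherever this centring is used below. With centring on the genes listed in all 25 libraries, they were 1.12 (limma adjusted p = 0.0442) and 0.79 (limma adjusted p = 0.00174). Over all alternatives the adjusted p ran from 0.000216 to 0.214 against 0 min and from 3.2e-06 to 0.0514 against 15 to 120 min. On the deposited scale, 89.1% and 91.9% of the tested genes had a smaller difference than MFA1 in these comparisons.

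MFA2 took another course. It stood at 10.34 log2 RPM at 0 min. Its lowest, median and highest libraries were 9.99, 10.63 and 10.79 at 15 to 120 min, 10.92, 11.11 and 11.39 at 135 to 240 min, and 10.40, 10.78 and 10.94 at 255 to 360 min. The 8 middle libraries were all above the 8 early ones, and 7 of them were above the highest late one, the 210 min library being the exception. MFA2 was not called against 0 min at 255 to 360 min (0.43, SE 0.27, interval -0.11 to 0.97, limma adjusted p = 0.23) or against 15 to 120 min (0.25, SE 0.13, limma adjusted p = 0.118). Summed over both genes, a-factor precursor RNA was 11.03 log2 RPM at 0 min, with medians of 11.38, 12.11 and 12.05 in the 3 windows.

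The comparison of 135 to 240 with 15 to 120 min was added after the values had been seen. In it 3 of 7 tested members rose, beside 26.5% of 4634 tested genes, 21.3% passing as higher and 5.18% as lower. MFA1 was higher by 0.76 (SE 0.17, limma adjusted p = 0.00144), MFA2 by 0.59 (SE 0.13, limma adjusted p = 0.000878) and STE2 by 0.40 (SE 0.12, limma adjusted p = 0.014). The median of the 7 members was 0.37, against 0.21 over all tested genes. None of the 3 passed with centring on the tested genes (differences of 0.43, 0.26 and 0.07), and MFA1 and MFA2 passed with centring on the genes listed in all libraries (0.56 and 0.40). From 135 to 240 to 255 to 360 min, also added, 0 of 7 members passed by limma, beside 2.07% of all tested genes, 1.17% as higher and 0.906% as lower. At an unadjusted p under 0.05 limma placed 880 of the 4634 genes there, MFA2 and BAR1 among them (differences of -0.34 and -0.45).

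The balance between the precursor genes does not depend on library scaling, since it is a ratio within each library. MFA1 made up 38.0% of the reads of the pair at 0 min (1161 reads against 1892, 95% Clopper-Pearson interval 36.3 to 39.8%). Its lowest, median and highest shares were 37.9, 44.8 and 50.5% at 15 to 120 min, 32.9, 50.6 and 57.6% at 135 to 240 min, and 55.5, 57.1 and 59.8% at 255 to 360 min. MFA1 had more reads than MFA2 in 1 of 8 early, 4 of 8 middle and 8 of 8 late libraries, and the interval lay above 50% in 8 of 8 late libraries, the shallow 345 min library included (57.1%, interval 53.0 to 61.1%). The log2 ratio MFA1/MFA2 was -0.70 at 0 min, -0.31 ± 0.25 (SD, n = 8) early, -0.14 ± 0.53 (n = 8) in the middle and 0.43 ± 0.09 (n = 8) late. Late minus early was 0.74, a 1.67-fold change of the ratio, with no overlap between the windows (exact two-sided permutation test, p = 0.0001554, the smallest that 8 against 8 libraries can give, and adjusted p = 0.0006216 over the 4 ratios tested). The shift was not smooth: after 50.5% at 105 min, the share was 36.3% at 135 min and 32.9% at 195 min (interval 28.0 to 38.0%, 117 against 239 reads). At 135 min the implied MFA1 read number was not whole (946.5), and the 195 min library was the shallowest. The share was below that at 105 min also at 120 min (46.5%) and 165 min (46.0%). These intervals cover counting error only, and reads without molecular identifiers are not independent molecules.

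**Figure D2:**
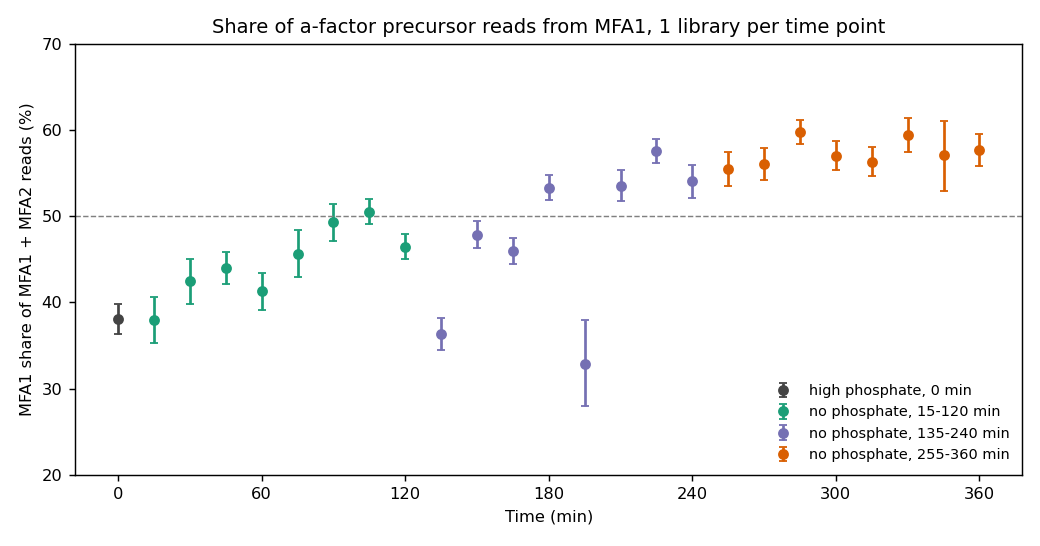
Share of MFA1 among the reads of MFA1 and MFA2 together (percent) in every library against time (min), with bars for the 95% Clopper-Pearson interval. The 8 late libraries lie between 55.5 and 59.8%, whereas the 8 early ones lie between 37.9 and 50.5%.

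STE6 encodes the transporter that carries a-factor out of the cell, and it did not follow MFA1. Its 0 min value was 6.30 log2 RPM, and its lowest, median and highest values were 5.22, 6.17 and 6.45 at 15 to 120 min, 5.63, 5.99 and 7.40 at 135 to 240 min, and 5.45, 5.71 and 6.02 in the 7 libraries of 255 to 360 min that listed it. None of those 7 late libraries reached the 0 min value, and the highest value of all was in the shallow 195 min library, where it rests on 18 reads. STE6 did not pass against 0 min (-0.58, SE 0.45, limma adjusted p = 0.345) or against 15 to 120 min (-0.29, limma adjusted p = 0.3). With centring on the tested genes it was called lower in both, at -1.08 (limma adjusted p = 0.0485) and -0.53 (limma adjusted p = 0.0301), and with centring on the genes listed in all libraries in neither (limma adjusted p = 0.0967 and 0.0859). The adjusted p over all alternatives ran from 0.0485 to 0.4 and from 0.0301 to 0.446. The log2 ratio STE6/MFA1 was -3.34 at 0 min, -4.20 ± 0.31 (SD, n = 8) early, -4.83 ± 0.98 (n = 8) in the middle and -5.53 ± 0.20 (n = 7) late. It fell by 1.33 from early to late, a 2.52-fold change with all 7 late libraries below all 8 early ones (exact two-sided permutation test, p = 0.0003108, adjusted p = 0.0006216).

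STE2 encodes the receptor for alpha-factor and had the smallest spread of the 8 genes over the libraries (SD 0.24). It stood at 8.87 log2 RPM at 0 min. Its lowest, median and highest libraries were 8.26, 8.82 and 9.04 at 15 to 120 min, 9.03, 9.14 and 9.36 at 135 to 240 min, and 8.77, 8.88 and 9.22 at 255 to 360 min. The middle window was high, with 7 of 8 libraries above the highest early value, and the 90 min library was the lowest of all. STE2 did not pass at 255 to 360 min against 0 min (0.07, SE 0.25, interval -0.45 to 0.58, limma adjusted p = 0.864) or against 15 to 120 min (0.19, limma adjusted p = 0.215). Its highest and lowest libraries differed 2.14-fold, beside 3.60-fold for MFA1.

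BAR1 encodes the secreted protease that breaks down alpha-factor. At 0 min it stood at 6.45 log2 RPM. The lowest, median and highest libraries were 6.29, 6.75 and 7.35 at 15 to 120 min, 6.50, 6.85 and 7.40 at 135 to 240 min, and 5.61, 6.37 and 7.41 at 255 to 360 min. The late window spread widest and overlapped the early one, from 5.61 at 300 min to 7.41 in the shallow 345 min library. BAR1 did not pass against 0 min (-0.05, limma adjusted p = 0.934) or against 15 to 120 min (-0.35, SE 0.20, limma adjusted p = 0.172). Without the 345 min library it was lower against 15 to 120 min by -0.49 (limma adjusted p = 0.0316), and with centring on the tested genes by -0.67 (limma adjusted p = 0.00403). The adjusted p of this comparison ran from 0.00403 to 0.359 over the alternatives. The ratio of the protease to the receptor, BAR1/STE2, was -2.42 (log2) at 0 min, -2.01 ± 0.27 (SD, n = 8) early and -2.54 ± 0.56 (n = 8) late. It fell by 0.54, a 1.45-fold change, with 6 of 8 late libraries below the lowest early one (exact two-sided permutation test, p = 0.02222, adjusted p = 0.02963). The call was lost without the 60, 75, 90, 270, 300 or 360 min library, at adjusted p of 0.0501 to 0.0593.

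**Figure D3:**
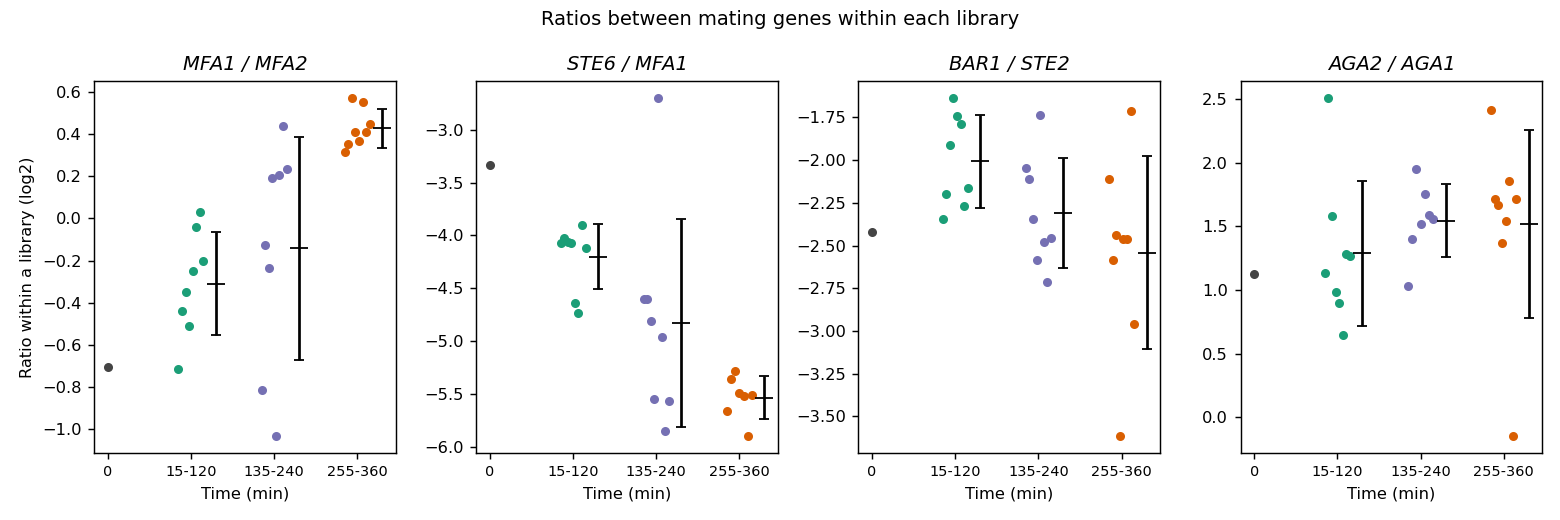
Within-library log2 ratios of 4 pairs of mating genes at 0 min and in the 3 windows. Points are libraries and black bars are means ± SD; the late libraries of MFA1/MFA2 lie above, and those of STE6/MFA1 below, every early library.

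AGA1 and AGA2 encode the subunits of a-agglutinin, in which Aga1 anchors to the cell wall and Aga2 binds the partner cell. AGA2 stood at 6.76 log2 RPM at 0 min. Its lowest, median and highest libraries were 6.74, 7.18 and 7.57 at 15 to 120 min, 7.32, 7.49 and 7.73 at 135 to 240 min, and 6.66, 7.45 and 7.72 at 255 to 360 min. In 22 of 24 no-phosphate libraries AGA2 was above 0 min, the exceptions being the 15 min library and the shallow 345 min library. It missed the threshold at 255 to 360 min against 0 min (0.61, SE 0.30, interval -0.01 to 1.22, limma adjusted p = 0.132) and in the middle against the early window (0.37, limma adjusted p = 0.0547). Without the 345 min library the difference from 0 min was 0.71 (limma adjusted p = 0.0384), and with centring on the tested genes it was 0.03. Over all alternatives the limma adjusted p of the difference from 0 min ran from 0.0334 to 0.97. The difference of the middle from the early window was 0.04 with centring on the tested genes.

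AGA1 stood at 5.64 log2 RPM at 0 min. Its lowest, median and highest values were 4.70, 6.01 and 6.55 at 15 to 120 min, 5.67, 6.03 and 6.44 in the 7 middle libraries that listed it, and 5.004, 5.79 and 6.80 at 255 to 360 min. The windows overlapped, and the lowest value, at 30 min, rests on 13 reads. AGA1 did not pass at 255 to 360 min against 0 min (0.21, limma adjusted p = 0.77) or against 15 to 120 min (-0.02, limma adjusted p = 0.943). The log2 ratio AGA2/AGA1 was 1.12 at 0 min, 1.29 ± 0.57 (SD, n = 8) early and 1.52 ± 0.74 (n = 8) late, a difference of 0.23 within the spread (exact two-sided permutation test, p = 0.5086).

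ASG7 encodes a protein that acts on the G protein beta subunit after mating. It was near the listing limit, with 10 to 58 reads in the 17 libraries that listed it. Its 0 min value was 4.36 log2 RPM. Lowest, median and highest values were 3.93, 4.87 and 5.23 in 6 early libraries, 3.99, 4.35 and 5.01 in 5 middle libraries, and 3.72, 3.98 and 4.29 in 5 late libraries. The 5 late values were all below 0 min and overlapped the early ones at 90 min. ASG7 was listed too rarely for the window tests. With the listing filter lifted, it was lower at 255 to 360 than at 15 to 120 min by -0.81 (limma adjusted p = 0.00761), but with unlisted values set to the listing limit the difference was -0.45 (limma adjusted p = 0.298). Its late level is thus known only from the libraries in which it was listed.

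At 15 to 120 min against 0 min, 0 of 7 tested members passed limma's test, beside 0.694% of all 4613 tested genes, all of them higher. At an unadjusted p under 0.05 limma placed 647 genes there. The differences of the members ran from -0.29 for STE6 to 0.58 for MFA1 (limma adjusted p = 0.765 and 0.435).

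**Figure D4:**
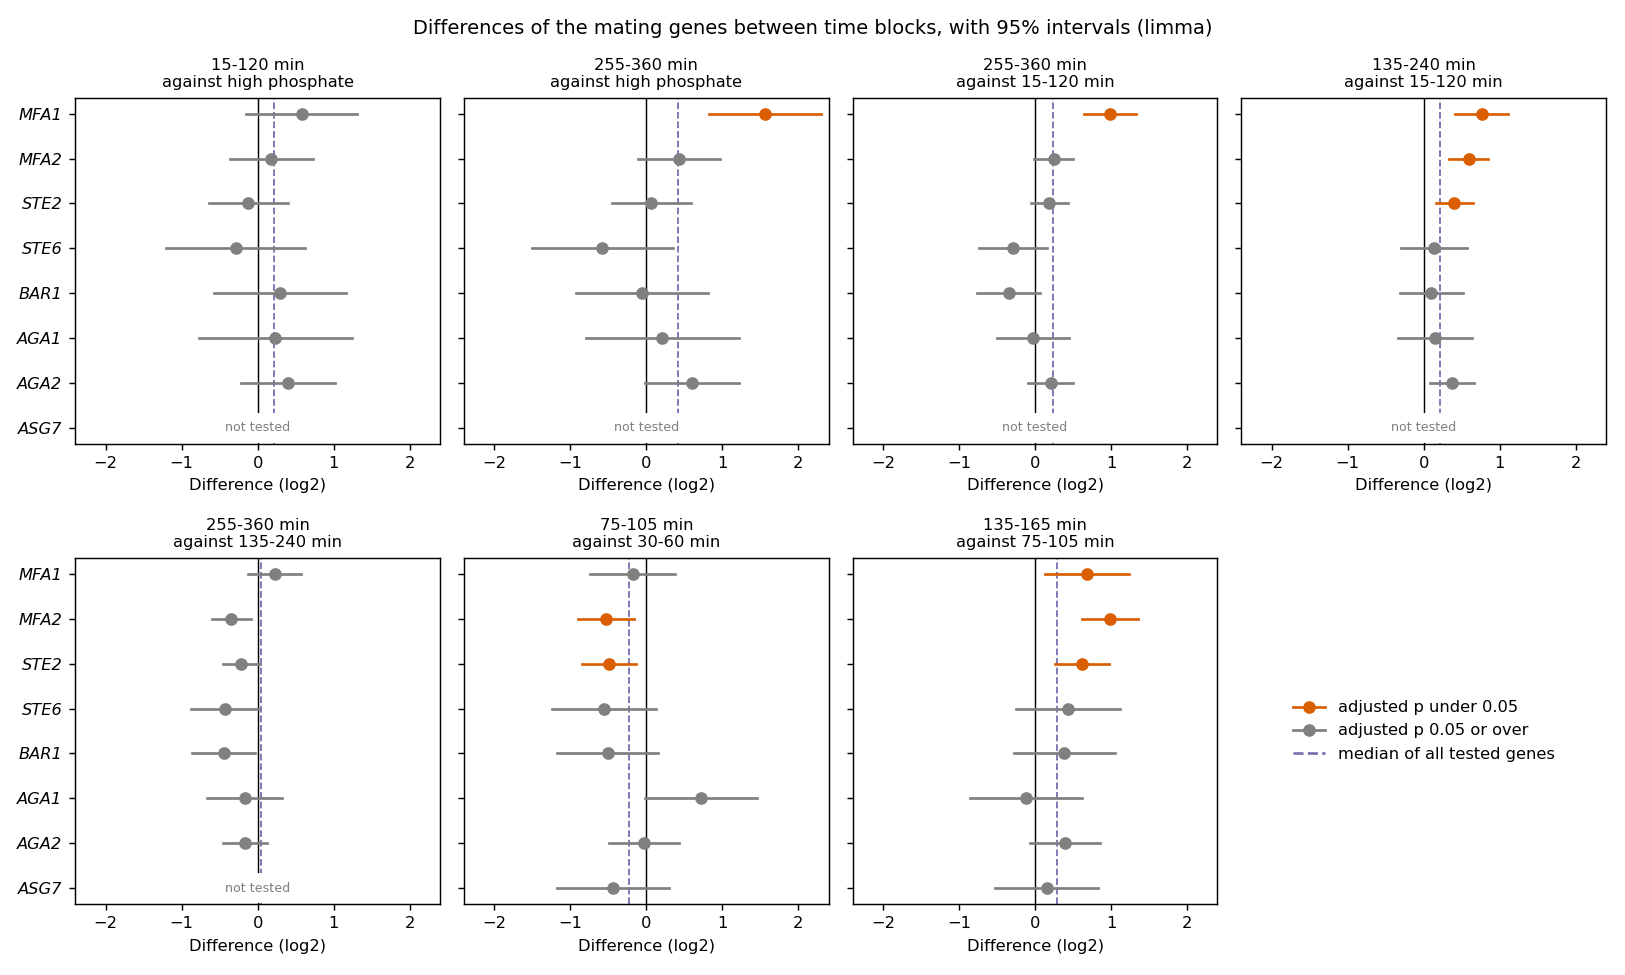
Differences (log2) of the 8 genes in 7 comparisons of time blocks, with 95% intervals. Orange marks a limma adjusted p under 0.05, grey the rest, and the dashed line is the median of all tested genes. MFA1 stands out to the right in both late comparisons, at 1.56 and 0.98.

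At 75 to 105 min against 30 to 60 min, 2 of 8 members fell, beside 33.4% of 4805 tested genes, 21.7% passing as lower and 11.7% as higher. The members' count was thus near the share of all genes. MFA2 fell by 0.53 (SE 0.18, limma adjusted p = 0.0252), from 10.66, 10.79 and 10.72 log2 RPM at 30, 45 and 60 min to 10.41, 9.99 and 10.19 at 75, 90 and 105 min. STE2 fell by 0.49 (SE 0.17, limma adjusted p = 0.0286), from 8.90, 8.97 and 8.98 to 8.55, 8.26 and 8.57. The 3 later libraries of each gene were below the 3 earlier ones. The median of all tested genes fell too, by 0.22, and with either centring neither gene was called (adjusted p of 0.238 to 0.529 by limma). Neither was called without the 45, the 60 or the 90 min library, STE2 was also lost without the 30 min library and MFA2 without the 105 min library (limma adjusted p of 0.0509 to 0.146 in these fits). AGA1 moved to the other side, from a mean of 5.49 to 6.21 (0.72, limma adjusted p = 0.129), and it was called higher with either centring (0.92 and 0.93, limma adjusted p = 0.0283 and 0.0267). The adjusted p of AGA1 ran from 0.0267 to 0.558 over the alternatives. The mean level of 124 ribosomal protein genes was 9.33 log2 RPM at 30 to 60 min, 10.65 at 75 to 105 min and 8.32 at 135 to 165 min, and its part in these differences was not tested.

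From 75 to 105 to 135 to 165 min, 3 of 8 members rose, beside 39.1% of 4805 tested genes, 27.5% passing as higher and 11.6% as lower. MFA2 was higher by 0.99 (SE 0.18, limma adjusted p = 0.000115), reaching 11.12, 11.04 and 11.39 log2 RPM at 135, 150 and 165 min. STE2 was higher by 0.62 (SE 0.17, limma adjusted p = 0.00559), reaching 9.07, 9.03 and 9.14. MFA1 was higher by 0.68 (SE 0.27, limma adjusted p = 0.0459), at 10.31, 10.92 and 11.16. All 3 genes were higher in each of these libraries than in any at 75 to 105 min. The median tested gene rose by 0.29, and with centring on the tested genes none of the 3 passed, MFA2 coming nearest at 0.76 (limma adjusted p = 0.0539). With centring on the genes listed in all libraries MFA2 passed at 0.74 (limma adjusted p = 0.00366), within a range of 1.48e-05 to 0.0539 over its alternatives. A spline of time over the 24 no-phosphate libraries found a change in 2 of 7 tested members, beside 31.7% of 4568 tested genes. They were MFA1 (F = 12.1, limma adjusted p = 0.000213) and MFA2 (F = 4.999, limma adjusted p = 0.0184). Over the alternatives their adjusted p ran from 2.37e-06 to 0.164 and from 0.0103 to 0.462, the highest values coming with centring on the tested genes.

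Across the 24 no-phosphate libraries the 8 genes did not move as one. The most alike pair was MFA2 and STE2 (Pearson r = 0.82 over 24 libraries), followed by MFA2 and AGA2 (r = 0.70). MFA1 had r = 0.625 with AGA2, 0.53 with MFA2 and 0.53 with STE2. It had r = -0.075 with AGA1, -0.27 with STE6, -0.36 with BAR1 and -0.55 with ASG7 (16 libraries). The mean level of the ribosomal protein genes had r = -0.84 with MFA1, -0.71 with MFA2, -0.69 with STE2 and -0.50 with AGA2. It had r = 0.43 with ASG7 (16 libraries), and between -0.01 and 0.03 with STE6, BAR1 and AGA1. The mean of 16 genes of the PHO regulon, which cells raise when phosphate is short, had r = 0.74 with MFA1, 0.80 with MFA2 and 0.79 with STE2, and that of 17 general stress genes had r = 0.65, 0.61 and 0.61. These coefficients are descriptions: the libraries are points of one time course and share depth and scaling. Among 2200 genes listed in all 25 libraries and outside the 8, the profiles most like MFA1 were those of EXG1, a cell wall glucanase (r = 0.92), CCW14, a cell wall protein (0.89), and COX12, a subunit of cytochrome c oxidase (0.89). Those most like MFA2 were the glycolytic genes PFK2 (0.91), PGI1 (0.88) and TDH2 (0.88). Those most like STE2 were PHM6 (0.83), SDT1 (0.82) and the pyruvate decarboxylase gene PDC1 (0.82). After centring of the libraries, r was lower and in another order for STE2 (0.57 for PHM6, 0.59 for SDT1 and 0.69 for PDC1) and fell to 0.74 for TDH2 with MFA2, while EXG1 kept 0.90 with MFA1 and PFK2 0.89 with MFA2. The best r was 0.81 for STE6 (YPR147C), 0.86 for BAR1 (CHZ1), 0.74 for AGA1 (PKR1) and 0.77 for AGA2 (AIM5).

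The rest of the mating pathway was examined as lists. Of 6 genes that process a-factor precursors, 5 were tested and 0 passed limma's test at 255 to 360 min against 0 min, where 30.5% of all tested genes passed, 25% as higher and 5.46% as lower. Against 15 to 120 min, RAM2, a subunit of the farnesyltransferase, was higher (0.56, limma adjusted p = 0.00313), and STE24, the protease that trims the farnesylated precursor, was lower (-0.64, limma adjusted p = 0.00371). The median of the 5 was -0.05, beside 0.23 over all tested genes. RAM2 lost its call with centring on the tested genes (limma adjusted p = 0.297), and STE24 kept its call under both centrings. STE14, the methyltransferase that caps the farnesylated end, fell at 75 to 105 min (-0.68, limma adjusted p = 0.00892) and was higher again at 135 to 165 min (0.57, limma adjusted p = 0.0225), and neither call held under either centring. At 255 to 360 against 15 to 120 min STE14 was not called on the deposited scale (-0.18, limma adjusted p = 0.323) but was called lower under both centrings (-0.50 and -0.38, limma adjusted p = 0.0352 and 0.021).

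Of 19 genes of pheromone signalling, 17 were tested. At 255 to 360 min against 0 min, 3 rose and 0 fell: the MAP kinase kinase STE7 (1.23, limma adjusted p = 0.0186), the kinase STE11 above it (1.00, limma adjusted p = 0.0405) and the Ste11 adaptor STE50 (0.88, limma adjusted p = 0.0208). The median of the 17 was 0.56, beside 0.42 over all tested genes, of which 25% passed as higher, so the count of 3 of 17 lay below the background share. With centring on the tested genes 0 passed. Against 15 to 120 min, 6 rose and 0 fell, led by STE7 (0.81), the scaffold STE5 (0.68), STE11 (0.59) and the polarity scaffold BEM1 (0.59). The count of 6 of 17 was near the share of all tested genes, of which 31.5% passed as higher and 8.85% as lower. This split turned with the scaling: 1 rose and 4 fell with centring on the tested genes, and 4 rose and 4 fell with centring on the genes listed in all libraries. The share of all tested genes under each centring is not given here, so these counts are not read as a result about the list. STE7 rose under both centrings (0.57 and 0.65). The G beta gene STE4, the signalling brake SST2 and the transcription factor gene STE12, at -0.25, -0.27 and -0.23 on the deposited scale, passed as lower under both (STE4 at -0.57 and -0.45, SST2 at -0.59 and -0.47, STE12 at -0.54 and -0.42). At 135 to 165 min against 75 to 105 min, 3 of 17 rose, beside 27.5% of all tested genes, namely STE11 (1.03), the cell cycle arrest gene FAR1 (0.60) and the G alpha gene GPA1 (0.55), of which STE11 kept its call under both centrings.

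Of 17 genes that pheromone induces, 9 were tested in the windows. PRM8, a membrane protein gene, was higher at 255 to 360 min against 0 min (1.18, limma adjusted p = 0.0384) and against 15 to 120 min (0.58, limma adjusted p = 0.0228), but passed under neither centring. PRM5 was lower in the latter comparison (-0.56, limma adjusted p = 0.0288) under both centrings too. The fusion gene FUS1, among the most strongly pheromone-induced genes, was not called on the deposited scale (-0.60 against 0 min and -0.40 against 15 to 120 min, limma adjusted p = 0.2 and 0.057), and with either centring it was called lower in both. At 75 to 105 min, 3 of 12 tested genes of this list fell, AFR1 (-1.48), PRM5 (-1.02) and PRM8 (-0.94), and at 135 to 165 min PRM8 (1.18) and AFR1 (1.12) were higher again. Over all tested genes, 21.7% fell at 75 to 105 min, near the share of this list. At 135 to 165 min 27.5% of all tested genes passed as higher, beside 2 of 12 here. The calls at 75 to 105 min held under both centrings, and so did that of PRM8 at 135 to 165 min, whereas AFR1 lost its call there under both (limma adjusted p = 0.0658 and 0.0764). Of 6 genes of mating-type control, RME1, a repressor of meiotic entry, was higher at 255 to 360 min against 0 min (1.21, limma adjusted p = 0.0127) and against 15 to 120 min (0.82, limma adjusted p = 0.000408), the latter also under both centrings. NEJ1, an end-joining gene repressed in diploid cells, was higher at 75 to 105 min (0.69) and lower at 135 to 165 min (-0.75), under both centrings too. Among the 4 markers of MAT alpha cells, STE3 was lower at 255 to 360 than at 15 to 120 min (-0.64, limma adjusted p = 0.0298). SAG1 was listed too rarely for that test, and its means went the other way, from 3.26 log2 RPM at 0 min to 3.72, 4.49 and 4.81 in the libraries of the 3 windows that listed it. SAG1 was lower at 75 to 105 than at 30 to 60 min (-0.89, limma adjusted p = 0.0223) and higher at 135 to 165 than at 75 to 105 min (0.83, limma adjusted p = 0.0173), with neither call holding under either centring. Of the 6 sporulation markers only NDT80 was tested. It was higher at 255 to 360 min against 0 min (2.56, limma adjusted p = 0.000566), also under both centrings. NDT80 was not called at 15 to 120 min against 0 min (1.97) or at 255 to 360 against 15 to 120 min (0.59). It was called higher at 135 to 165 against 75 to 105 min (1.06, limma adjusted p = 0.0272). It was also called at 135 to 240 against 15 to 120 min (0.69, limma adjusted p = 0.0402), there under neither centring.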

How the data were processed

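RNA of 25 libraries of 1 time course was analysed. The submitters' processing notes name Bowtie as the aligner and R64 as the genome build; version, annotation, counting tool, strand use and read length: not given in the sources used here. As deposited, the authors' values are log2 RPM, although the series text speaks of normalization to 0 min: in the file, 2 to the power of the values sums to about 1000000 per library, and the 0 min column is not at 0. Of 6701 rows, 51 had no gene name and 2 shared a name, which left 6648 names, of which 5576 had a value. Read numbers were recovered by taking the smallest listed value of a library as 10 reads; 93.5 to 95.4% of the values per library then came out whole within 0.02. Implied depth ran from 106672 to 1911747 reads.

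The deposited values were tested with limma 3.58.1 in R 4.3.3 across all genes, with Benjamini-Hochberg adjustment and a threshold of 0.05. A gene was tested where each window had it in 6 or more of 8 libraries, each short block in 2 of 3, or 20 of all 24 for the spline of 4 degrees of freedom. The single 0 min library took its spread from the windows, and unlisted values were left out of the fit. Exact permutation tests used SciPy 1.17.1. Sequences came from the R64 FASTA and annotation of RefSeq, and Biopython 1.88 aligned the coding sequences of MFA1 and MFA2. The limma and permutation routines were tested on simulated data.

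The members and lists were chosen with earlier results of these data known. Named are all 8 members, of each other list at most the 4 genes with the largest difference among those past the threshold, and per member up to 3 most alike genes; FUS1, STE4, SST2 and STE12, and genes called only in an alternative, were named after their values were seen. Alternatives were both centrings, the listing filter, a variance trend, unlisted values set to the limit, and leaving out libraries.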

Additional observations from a re-analysis of the deposited data

Results flagged for a closer look

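Within windows of 8 libraries, 6 of 36 groups of values had a library far from the rest by Dixon's 95% limit, which chance passes in about 1 in 20 groups. Of these, 3 concern the shallow 345 min library: MFA1 was lowest there in the late window at 10.814 log2 RPM (next 11.119), MFA2 at 10.403 (next 10.695), and the log2 ratio AGA2/AGA1 at -0.144 (next 1.368). The shallow 195 min library held the highest STE6 value of the middle window, 7.399 log2 RPM (next 6.354), and with it the highest log2 ratio STE6/MFA1, -2.7 (next -4.601). MFA2 was highest in the middle window at 165 min, at 11.394 log2 RPM (next 11.14), in a library of ordinary depth.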

How the results depend on the processing

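No paired analysis was possible because each time point had 1 library and the numbering of libraries within a window is only their order in time. Over all alternatives, 2073 of 2213 recomputed values and counts were classed as unchanged, 52 lost and 20 gained a call, 46 changed sign and 22 counts moved by over 1.5 times. Values that were not called and stayed so are among the unchanged. A count was classed as unchanged within 1.5 times, whichever members it held. At 255 to 360 min against 0 min, centring on the tested genes kept the count at 1. The member called was then STE6 as lower, in place of MFA1 as higher. The counts in this paragraph stand without the share of all tested genes called in the same fit. They describe how calls moved and are not read as results particular to the members. With centring on the tested genes, the members called became 2 at 255 to 360 against 15 to 120 min (from 1; both lower, STE6 and BAR1), 1 at 75 to 105 min, 0 at 135 to 165 min, 0 at 135 to 240 min and 1 over the spline (BAR1, adjusted p 0.0317, with MFA1 and MFA2 lost); on the genes listed in all libraries they became 2, 1, 1, 2 and 1 in the same order. Without the filter, 2 were called late against early (ASG7 lower), and without the 195 and 345 min libraries 4 (AGA2 higher, BAR1 and ASG7 lower besides MFA1) and 2 late against 0 min. Without the 90 and 105 min libraries the spline called 1, MFA2 being lost. Leaving out 1 library gave 1 to 2 members late against 0 min, 1 to 2 late against early, 0 to 2 at 75 to 105 min, 2 to 3 at 135 to 165 min, 3 to 4 at 135 to 240 min, 1 to 2 over the spline and 2 to 3 of the 4 ratios. MFA1 at 135 to 165 min had adjusted p of 0.00838 to 0.195 in these fits, and its MFA1/MFA2 ratio kept 0.68 to 0.79. The causes were not tested.

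All sign changes were in values that were not called. Centred on the tested genes and on those listed in all libraries, late against 0 min gave -0.15 and -0.011 for MFA2, -0.51 and -0.37 for STE2, and -0.36 and -0.23 for AGA1. Early against 0 min gave -0.083 and -0.062 for MFA2, and -0.030 and -0.0096 for AGA1. Late against early gave -0.071 for MFA2, -0.11 for AGA2 (tested genes only), and -0.13 and -0.00814 for STE2. At 75 to 105 min MFA1 was 0.023 and 0.036 and AGA2 0.17 and 0.18, and at 135 to 165 min ASG7 was -0.22 under both. At 135 to 240 min STE6 was -0.20 and -0.063, BAR1 -0.23 and -0.096, AGA1 -0.026 and -0.016. Without the 195 and 345 min libraries STE6 was -0.047 there, and without the 90 and 105 min libraries BAR1 was -0.0211 there and AGA1 0.029 late against early. With 1 library left out, BAR1 late against 0 min ran from -0.20 to 0.059, and AGA1 late against early from -0.19 to 0.097. At 75 to 105 min AGA2 ran from -0.18 to 0.097 and ASG7 from -0.93 to 0.056. At 135 to 165 min AGA1 ran from -0.31 to 0.050 and ASG7 from -0.34 to 0.65. At 135 to 240 min STE6 ran from -0.047 to 0.20 and AGA1 from -0.023 to 0.24.

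Limits: 1 high-phosphate library carries every comparison with 0 min, ASG7, STE6 and AGA1 rest on median counts of 19 to 51 reads, and unlisted values hide levels below 10 reads.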
